A study of Mus musculus with 24 samples.

Results

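Glycolysis turns glucose into pyruvate, and 40 mouse genes of this route, of gluconeogenesis and of pyruvate handling were examined out of 45706 genes counted in small intestinal (SI) and colonic (COL) organoids. The members are the listed enzymes from hexokinase to lactate dehydrogenase, the PFKFB enzymes that set the level of fructose 2,6-bisphosphate, the pyruvate dehydrogenase kinases, subunits of pyruvate dehydrogenase, the lactate transporters and the enzymes of gluconeogenesis. The genes were listed by name, with earlier results of these data known, and each symbol was matched to 1 Ensembl identifier present in both count tables.

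Organoids are epithelial cultures grown in gel from intestinal crypts, here from C57BL/6N mice. Donors carried BraffloxV600E/+ (called BRAF), Trp53LSL-R172H/+ (p53) or both alleles (BRAFp53), each together with Villin::CreERT2, a recombinase made in intestinal epithelium that acts once 4-hydroxytamoxifen (4-HT) is given. Induced organoids (on) had 4-HT for 24 h and non-induced organoids (off) had ethanol, with 0.5 µM and RNA on day 8 for SI and 3.5 µM and RNA on day 3 for COL. Each of the 3 genotypes came from 1 donor culture per tissue with 2 off and 2 on libraries, so 12 groups of 2 libraries were compared and p-values measure the spread between libraries of a culture. Only in the test of off COL against off SI cultures do they measure the spread between cultures of a tissue. Genotype and donor culture cannot be told apart, and tissue cannot be told apart from dose, day and medium, since according to the study's methods the colonic cultures also received Wnt3a and an inhibitor of GSK3. All off cultures carried the unrecombined alleles and the Cre transgene.

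Glucose enters the route when hexokinase phosphorylates it. Phosphofructokinase commits the sugar, a chain of enzymes from aldolase to pyruvate kinase yields pyruvate, and lactate dehydrogenase turns pyruvate into lactate, which leaves the cell through monocarboxylate transporters. In mitochondria pyruvate is instead used by pyruvate dehydrogenase, which the PDK kinases switch off, or is carboxylated by Pcx towards gluconeogenesis. In the intestine the absorptive cells of the villus also handle dietary fructose and hold several gluconeogenic enzymes, and proliferating crypt cells are known for a high glycolytic flux.

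COL libraries held 51174821 to 78175143 counts and SI libraries 44350747 to 68214835, so that 3 counts, taken here as the detection floor, corresponded to 0.0408 to 0.0774 CPM, counts-per-million after TMM scaling within a tissue. Of the 40 members, 38 passed the filter on low counts in COL and 37 in SI. Hk3 had at most 2 counts and Eno2 at most 25 in any of the 24 libraries, and neither was tested, and Ldhb was not tested in SI. The Trp53 transcript rose in the on libraries of 3 of the 4 cultures with the R172H allele by log2 fold changes of 0.94, 0.52 and 0.94, with 0.76 in SI p53 not passing the test, and Braf did not pass it in any arm. Epithelial markers (8 genes) summed to between 8330 and 33500 CPM, whereas 14 stromal, muscle and blood markers summed to at most 11.3 CPM, with Dcn, Cd3e and Hbb-bs at or under the floor in every library. One library stood apart. The library labelled SI BRAF on replicate 1 held 770 Xist counts beside 5582 counts of 4 Y-linked genes, whereas the other libraries of that culture held 8 to 27 Xist counts, and the calls that change without it are given beside the counts they belong to. The SI BRAFp53 and SI p53 libraries held 6123 to 9743 Xist counts and 0 to 11 counts of the Y-linked genes, against at most 3 and 4221 to 12994 in the COL libraries. Sex of the donor therefore differed between the SI cultures, and for BRAFp53 and p53 between tissues, and cannot be told apart from genotype or tissue there.

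Sequences are shown first for the enolase pair, because it limits what the counts can say, and then for the promoters of 4 members called in several arms. Eno1b is a near copy of Eno1. Their longest open reading frames (GENCODE M21 transcripts) both had 1305 bases and differed at 8, an identity of 99.4%, with an identical run of 725 bases. The stretch of the Eno1 reading frame from base 697 to base 816 holds 4 of these differences, in capitals, and all other letters are shared:
Eno1: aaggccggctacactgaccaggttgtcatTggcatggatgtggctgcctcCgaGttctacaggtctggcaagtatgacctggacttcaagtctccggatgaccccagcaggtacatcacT
Reads from the identical stretches fit either gene, so the split of counts between Eno1 and Eno1b is uncertain.

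RefSeq promoter windows (GRCm38.p6, 250 bases before to 50 after a transcript start) were found for 39 members, in 60 windows, and not for Eno1b. They were searched on both strands for ACGTG, the core letters bound by hypoxia-inducible factors, for CACGTG, which overlaps it and is the E-box of Myc and ChREBP partners, and for TGANTCA, the AP-1 element. ACGTG stood in 20 of 39 member genes (51.3%) against 21.8% of 27025 genes, CACGTG in 8 (20.5%) against 8.09%, and TGANTCA in 2 (5.13%, Aldoa and Fbp2) against 8.97%. The windows shown were picked as examples with the results known and belong to lactate dehydrogenase A, hexokinase 2 and the lactate exporter Slc16a3, whose transcripts rose in several arms, and to fructose bisphosphatase 1, which fell, with every ACGTG in capitals on either strand:
Ldha, chr7:46845554-46845853, + strand: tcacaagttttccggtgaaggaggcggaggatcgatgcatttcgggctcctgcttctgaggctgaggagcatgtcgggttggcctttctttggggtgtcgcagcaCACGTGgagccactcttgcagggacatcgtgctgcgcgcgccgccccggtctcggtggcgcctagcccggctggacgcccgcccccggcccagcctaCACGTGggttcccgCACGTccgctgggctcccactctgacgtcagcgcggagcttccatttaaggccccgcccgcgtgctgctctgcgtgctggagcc
Hk2, chr6:82774405-82774704, - strand: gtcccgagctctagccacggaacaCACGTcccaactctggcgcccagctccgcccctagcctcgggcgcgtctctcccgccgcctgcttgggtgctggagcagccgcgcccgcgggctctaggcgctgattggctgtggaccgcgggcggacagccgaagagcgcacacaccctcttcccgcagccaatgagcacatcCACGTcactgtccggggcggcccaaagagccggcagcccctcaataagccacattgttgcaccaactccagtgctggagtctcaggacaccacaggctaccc
Slc16a3, chr11:120948817-120949116, + strand: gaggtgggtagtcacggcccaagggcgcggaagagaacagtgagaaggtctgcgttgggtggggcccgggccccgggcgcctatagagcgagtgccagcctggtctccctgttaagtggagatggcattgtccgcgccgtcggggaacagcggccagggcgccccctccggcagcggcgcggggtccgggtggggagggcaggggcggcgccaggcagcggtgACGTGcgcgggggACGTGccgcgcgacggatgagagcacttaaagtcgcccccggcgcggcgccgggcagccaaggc
Fbp1, chr13:62888233-62888532, - strand: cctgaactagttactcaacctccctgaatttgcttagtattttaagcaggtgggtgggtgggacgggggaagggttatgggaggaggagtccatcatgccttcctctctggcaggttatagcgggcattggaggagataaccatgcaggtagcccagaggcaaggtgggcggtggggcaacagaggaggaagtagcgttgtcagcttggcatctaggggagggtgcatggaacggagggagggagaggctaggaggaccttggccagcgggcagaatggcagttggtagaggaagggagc
Ldha had 2 windows, and the one with more ACGTG matches is shown, the other holding 0. The Ldha window shown held 5 ACGTG matches counted on both strands, among them 2 CACGTG, each of which matched on both strands. Hk2 and Slc16a3 held 2 each, and the Fbp1 window held neither ACGTG nor TGANTCA. Over the 4 arms with a BRAF allele, ACGTG stood in 13 of 23 members called higher in at least 1, in 4 of 9 called lower and in 3 of the other 7. Gpi1, which had no match, leaves the first of these counts when the library labelled SI BRAF on replicate 1 is left out. These are matches of letters and were not measured as binding.

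The first comparison asked which paralogue carries each step in the off organoids. Shares were computed from counts per kilobase of exon and are given as the mean ± SD of the 3 off cultures. In COL organoids hexokinase transcripts came from Hk2 (44.0% ± 6.98) and Hk1 (33.8% ± 11.1), with Hkdc1 at 22.2% ± 14.8. In SI organoids Hkdc1, a hexokinase-like gene, made up 83.2% ± 3.73, and Hk1 only 3.66% ± 1.55. Which of Hk1 and Hk2 leads in COL depended on the length used, since Hk1 led with 45.4% when the longest transcript was taken.

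Pkm was the main pyruvate kinase in both tissues, yet the liver form Pklr had 18.7% ± 1.21 in SI and 3.27% ± 0.923 in COL, or 11.1% and 1.80% with the length of the longest transcript. Pfkfb3 led the PFKFB enzymes in COL (42.2% ± 8.40) and Pfkfb4 in SI (73.6% ± 1.54). Phosphofructokinase was alike, with Pfkl at 67.4% ± 1.30 in COL and 66.1% ± 0.775 in SI. Ldha exceeded 99% of lactate dehydrogenase in every off culture, and Slc16a1 led the lactate transporters with 70.4% ± 8.80 in COL. In SI it had 55.1% ± 3.36, but the size of that lead depended on the length used. With no length Slc16a1 had 50.5% and Slc16a3 49.5% in SI, and the SI off cultures ranged from 47.5% to 54.2% for Slc16a1.

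**Figure D1:**
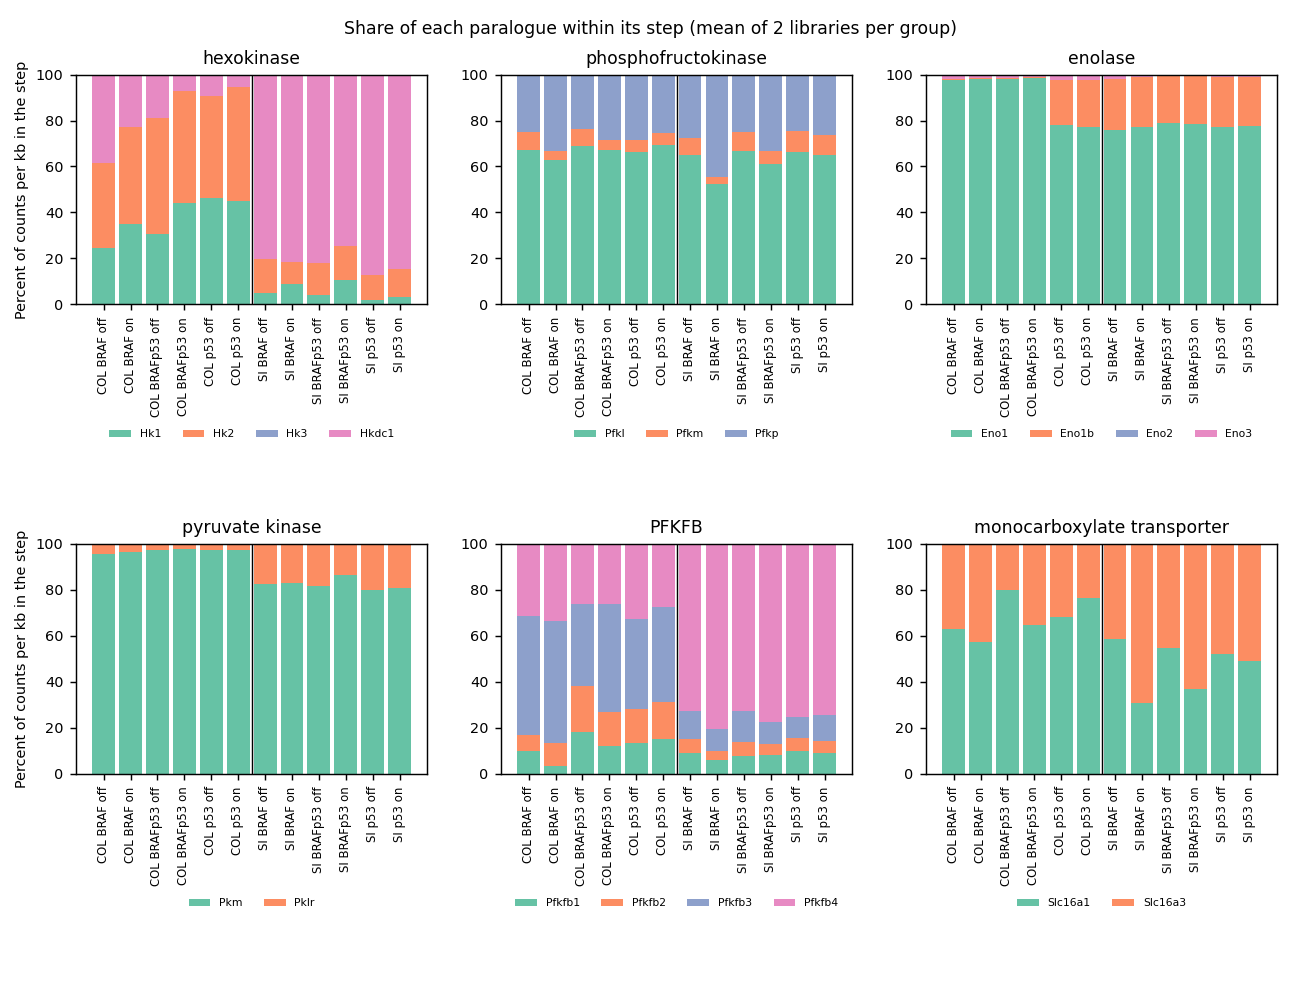
Stacked bars give the percent of counts per kilobase that each paralogue had within 6 steps, as the mean of 2 libraries in each of the 12 groups, COL to the left of the black line and SI to the right. Hkdc1 and Pfkfb4 fill most of the SI bars of their steps, and the Eno1b band is too thin to see in the COL BRAF and COL BRAFp53 bars.

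Tested between tissues with the off libraries of a culture summed (3 COL against 3 SI cultures), 12 of 38 members differed, 3 higher and 9 lower in COL, in a fit where 29.6% of 17789 genes were called (17.0% higher and 12.6% lower in COL). Leaving out 1 culture at a time gave 9 to 17 called members. Without the COL BRAFp53 culture 4 were higher and 5 lower (19.5% of genes called), and without the COL BRAF culture 3 and 14 (29.0%). Hk1 was higher in COL by a log2 fold change of 3.25 ± 0.49 (SE, edgeR adjusted p = 0.00473), and in CPM per kilobase it averaged 13.3 in COL and 1.44 in SI. Hk2 was higher in COL by 1.70 ± 0.23 and Ldhb, the heart form of lactate dehydrogenase, by 6.15 ± 0.65. Ldhb was nevertheless scarce, at 4.00 to 18 CPM in COL libraries.

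The 9 members lower in COL came from several steps. The COL minus SI log2 fold change was -6.01 for G6pc, which releases free glucose, -4.21 for Fbp1 and -2.69 for Pklr. It was -2.34 for Pfkfb4, -1.59 for Pdk2, -1.24 for Fbp2, -1.14 for Aldoc, -0.98 for Pdk1 and -0.54 for Pdhb. Gapdh, Eno1 and Pkm did not pass the test. Gapdh had a log2 fold change of -0.75 ± 0.29, Eno1 of -0.61 ± 0.24 and Pkm of 0.07 ± 0.24. Hkdc1, with -1.84 ± 0.59, also missed the threshold (edgeR adjusted p = 0.0539), and its COL cultures ranged from 4.27 to 18.7 CPM per kilobase against 28.3 to 36.4 in SI. Summed enterocyte markers (9 genes) ranged from 21000 to 36500 CPM in SI off libraries and from 1720 to 2760 CPM in COL off libraries, and their part in these differences was not tested. In such bulk samples fewer cells of a type and less RNA per cell cannot be told apart.

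The level of Eno1b differed between the COL cultures. In COL BRAF off it had 2.75 and 2.75 CPM and in COL BRAF on 2.96 and 3.30. In COL BRAFp53 it had 2.67 and 1.42 CPM off and 3.80 and 3.24 on. In COL p53, in contrast, it had 256 and 237 CPM off and 296 and 202 on, and the 12 SI libraries ranged from 258 to 420 CPM. The 2 sets of libraries did not overlap.

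Relative to Eno1, the Eno1b counts were 0.0764% to 0.128% in the 8 libraries of the COL BRAF and COL BRAFp53 cultures and 8.38% to 10.3% in the other 16. On and off libraries of a culture lay in the same range of this ratio, and the 2 ranges did not overlap. Eno1b rose in SI BRAF (0.61 ± 0.12) beside Eno1 (0.65 ± 0.11), and in no other arm did it pass the test. Summing the pair left the call of Eno1 the same in all 12 comparisons examined.

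**Figure D2:**
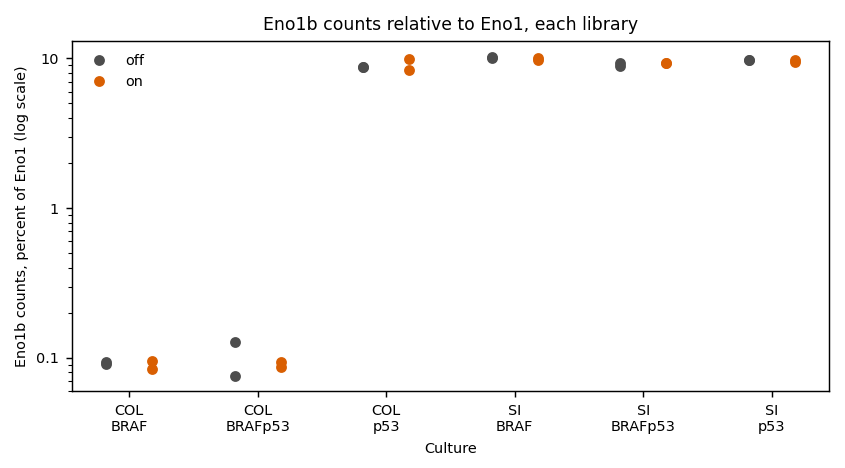
Each point is a library, with Eno1b counts as a percent of Eno1 counts on a log axis, off in grey and on in orange, by culture. The 8 libraries of the COL BRAF and COL BRAFp53 cultures lie between 0.0764% and 0.128% and the other 16 between 8.38% and 10.3%.

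The off cultures of a tissue were not alike before induction. The test of any difference between the 3 off cultures called 32 of 38 members in COL, where 32.1% of genes were called, and 11 of 37 in SI, where 6.92% were. In COL the BRAFp53 culture was lowest for 16 of 18 tested genes from glucose-6-phosphate isomerase to lactate dehydrogenase. In SI the BRAF culture was lowest for 16 of 17. The SI count was 2 without BRAF off replicate 2, 4 without BRAF off replicate 1 and 5 without BRAFp53 off replicate 1, where 3.14%, 3.64% and 4.80% of all genes were called.

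Induction was examined in 6 arms, each the on against the off libraries of a culture. In COL BRAF 10 of 38 members were called, 3 higher and 7 lower, where 19.9% of 18972 genes were called (10.3% higher and 9.61% lower). In COL BRAFp53 19 were called, 17 higher and 2 lower, against 17.7% (9.95% higher and 7.76% lower). In SI BRAF 20 of 37 were called, 19 higher and 1 lower, where 31.7% of 16856 genes were called (17.5% higher and 14.2% lower), and in SI BRAFp53 10 were called, 7 higher and 3 lower, against 11.5% (6.98% higher and 4.53% lower). The median log2 fold change of the members was 0.06, 0.45, 0.42 and -0.08 in these arms, and that of all genes tested was -0.01, -0.04, -0.06 and -0.03. In SI BRAFp53 DESeq2 called 8 members higher and 7 lower, where it called 15.0% of genes. There limma-voom called 8 and 5 (13.2% of genes) and a replicate block 6 and 6 (9.83%). Without SI BRAFp53 off replicate 2 the lower calls outnumbered the higher ones. Without the library labelled SI BRAF on replicate 1, Gpi1 and Pklr no longer passed in SI BRAF, while Fbp1 and Pfkm did and were lower. The median log2 fold change of the members in SI BRAF was 0.41 without that library. The COL BRAF count fell to 6 without off replicate 2, on replicate 1 or on replicate 2, where 11.1%, 9.59% and 12.1% of all genes were called.

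In the p53 arms no member was called by edgeR, against 0.142% of genes in COL (0.0316% higher and 0.111% lower) and 0.0% in SI. COL p53 had 13 of 38 members at an unadjusted p under 0.05, against 8.34% of all genes, and SI p53 had 2 of 37, against 5.18%. DESeq2 called 4 members lower in COL p53, where it called 1.71% of genes (1.08% lower), and 0 in SI p53, where it called 0.326%. With limma-voom 0 were called in both, against 0.195% and 0.00593% of genes. The median log2 fold change of the members was -0.26 in COL p53 and 0.12 in SI p53.

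**Figure D3:**
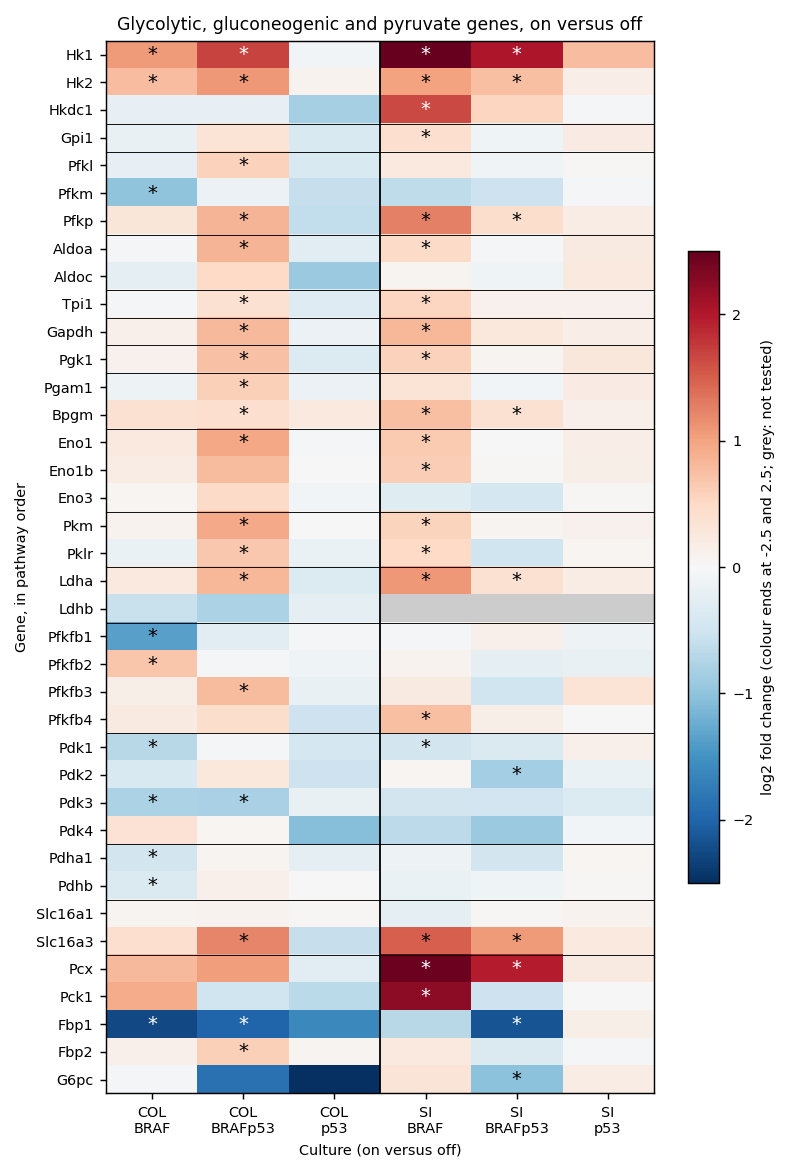
Rows are the 38 members tested in at least 1 tissue in pathway order, columns the 6 arms, and colour the log2 fold change on versus off, with an asterisk where the edgeR adjusted p was under 0.05 and grey where a gene was not tested. The rows from Aldoa to Ldha carry asterisks mainly in the COL BRAFp53 and SI BRAF columns, and the p53 columns carry none.

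Hk1 and Hk2 were the hexokinases called higher in all 4 BRAF-bearing arms. Hk1 went from 123 and 106 CPM to 240 and 239 in COL BRAF and from 59.4 and 71.8 to 243 and 182 in COL BRAFp53. In SI BRAF it went from 14.0 and 12.9 CPM to 58.5 and 91.8, and in SI BRAFp53 from 16.8 and 11.2 to 50.6 and 62.6. In all 4 arms the on libraries lay above the off libraries. The COL p53 culture had Hk1 at 217 and 180 CPM without induction, near the induced level of the other COL cultures.

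Hk2, the inducible hexokinase of growing tissue, rose in the same arms with smaller changes. It reached 212 and 192 CPM from 120 and 116 in COL BRAF, and 49.2 and 67.2 from 27.2 and 30.9 in SI BRAF. In SI BRAF Hkdc1 rose from 137 and 129 CPM to 350 and 493 (log2 fold change 1.66 ± 0.17, edgeR adjusted p = 9.9e-06). In SI BRAFp53 it had 185 and 140 CPM off and 222 and 249 on, which missed the threshold (0.54 ± 0.16, edgeR adjusted p = 0.053), and in COL BRAF 116 and 97.3 CPM off and 92.3 and 94.2 on. In the BRAF arms the Hkdc1 response in SI exceeded that in COL by 1.90 ± 0.32 on the log2 scale (edgeR adjusted p = 0.00074), and by 2.13 ± 0.33 without the library labelled SI BRAF on replicate 1.

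Hkdc1 still made up 81.6% of the step in SI BRAF on, against 80.1% off, and Hk1 went from 4.85% to 8.67%. Summed hexokinase per kilobase, on a scale common to both tissues, went from 35.3 to 113 CPM per kilobase in SI BRAF and from 48.5 to 71.9 in COL BRAF. In COL BRAFp53 it went from 22.9 to 51.1.

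The phosphofructokinase paralogues gave calls in different arms. Pfkp, the platelet form, rose from 297 and 270 CPM to 643 and 716 in SI BRAF (1.26 ± 0.11), from 430 and 368 to 549 and 538 in SI BRAFp53 (0.45 ± 0.11) and from 238 and 205 to 456 and 347 in COL BRAFp53 (0.86 ± 0.17). In COL BRAF it had 406 and 389 CPM off and 490 and 485 on, which did not pass the test. Pfkl, the liver form and the leading one, was called higher in COL BRAFp53, from 330 and 308 CPM to 457 and 491. Pfkm, the muscle form, was scarce and fell in COL BRAF from 28.6 and 32.2 CPM to 17.3 and 13.

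Most genes of the central steps were called higher in COL BRAFp53 and in SI BRAF. Of those from glucose-6-phosphate isomerase to lactate dehydrogenase, 12 of 18 tested were called higher in COL BRAFp53, where 9.95% of all genes were, and 12 of 17 in SI BRAF, where 17.5% were, with no gene of the group called lower in these arms. Without the library labelled SI BRAF on replicate 1, Gpi1 and Pklr no longer passed in SI BRAF, Pfkm was called lower, and the median log2 fold change of the group was 0.48. In COL BRAF edgeR called 0 higher and 1 lower, with 3 at an unadjusted p under 0.05 (32.3% of all genes), and in SI BRAFp53 3 were called higher, namely Pfkp, Bpgm and Ldha. The median log2 fold change of the group was 0.63 in COL BRAFp53, 0.53 in SI BRAF and 0.01 in both COL BRAF and SI BRAFp53.

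Gapdh, the dehydrogenase at the centre of the route, went from 2341 and 2258 CPM to 4364 and 3673 in COL BRAFp53 and from 3978 and 3495 to 6681 and 6528 in SI BRAF. In COL BRAF it had 4579 and 4227 CPM off and 4847 and 4741 on, and in SI BRAFp53 6122 and 4775 off and 6995 and 6119 on. Neither of the last pairs passed the test. The on libraries of COL BRAFp53 overlapped the off libraries of COL BRAF.

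Aldoa rose from 2461 and 2087 CPM to 4399 and 3836 in COL BRAFp53 (0.86 ± 0.12) and from 3229 and 2965 to 4418 and 4165 in SI BRAF (0.47 ± 0.11). In COL BRAF it stayed between 3836 and 4022 CPM in all 4 libraries, and in SI BRAFp53 between 3751 and 4515.

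Eno1, which makes phosphoenolpyruvate, rose from 2082 and 1862 CPM to 4033 and 3723 in COL BRAFp53 (0.98 ± 0.11, edgeR adjusted p = 0.00014) and from 2757 and 2514 to 4281 and 3980 in SI BRAF. Pkm, whose product is pyruvate, rose from 2904 and 2642 CPM to 5528 and 5184 in COL BRAFp53 and from 2604 and 2481 to 3900 and 3569 in SI BRAF. Neither gene passed the test in COL BRAF or in SI BRAFp53. The on libraries of COL BRAFp53 had more Pkm than any other group of the COL table.

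Ldha, which makes lactate, was called higher in 3 arms. It rose from 3374 and 3120 CPM to 6883 and 6940 in SI BRAF (1.09 ± 0.09), from 4916 and 4395 to 6379 and 5705 in SI BRAFp53 (0.38 ± 0.09) and from 2752 and 2344 to 4806 and 4222 in COL BRAFp53 (0.83 ± 0.12). In COL BRAF it had 3543 and 3550 CPM off and 4486 and 3910 on, a change of 0.24 ± 0.12 that did not pass the test.

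Bpgm, a mutase that also makes 2,3-bisphosphoglycerate, was called higher in 3 arms. It went from 35.4 and 31.1 CPM to 58.9 and 52.7 in SI BRAF (0.75 ± 0.11), from 35.2 and 37.9 to 47.1 and 48.6 in SI BRAFp53 and from 39.9 and 44.3 to 52.2 and 60.3 in COL BRAFp53. In COL BRAF it had 36.4 and 39.9 CPM off and 50.8 and 48.7 on, where the libraries did not overlap yet the change did not pass the test. Pgk1 and Tpi1, the kinase and isomerase of the lower stage, were called in the same pair of arms as Gapdh, with log2 fold changes of 0.73 and 0.38 in COL BRAFp53 and 0.57 and 0.53 in SI BRAF. Gpi1 was called higher in SI BRAF (0.42) and Pgam1 in COL BRAFp53 (0.59). Pklr was called higher in COL BRAFp53 and SI BRAF. Gpi1 (0.40) and Pklr (0.46) no longer passed in SI BRAF without the library labelled SI BRAF on replicate 1. Pklr shares 711 exonic bases with Hcn3 on the other strand, so part of its counts is uncertain.

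**Figure D4:**
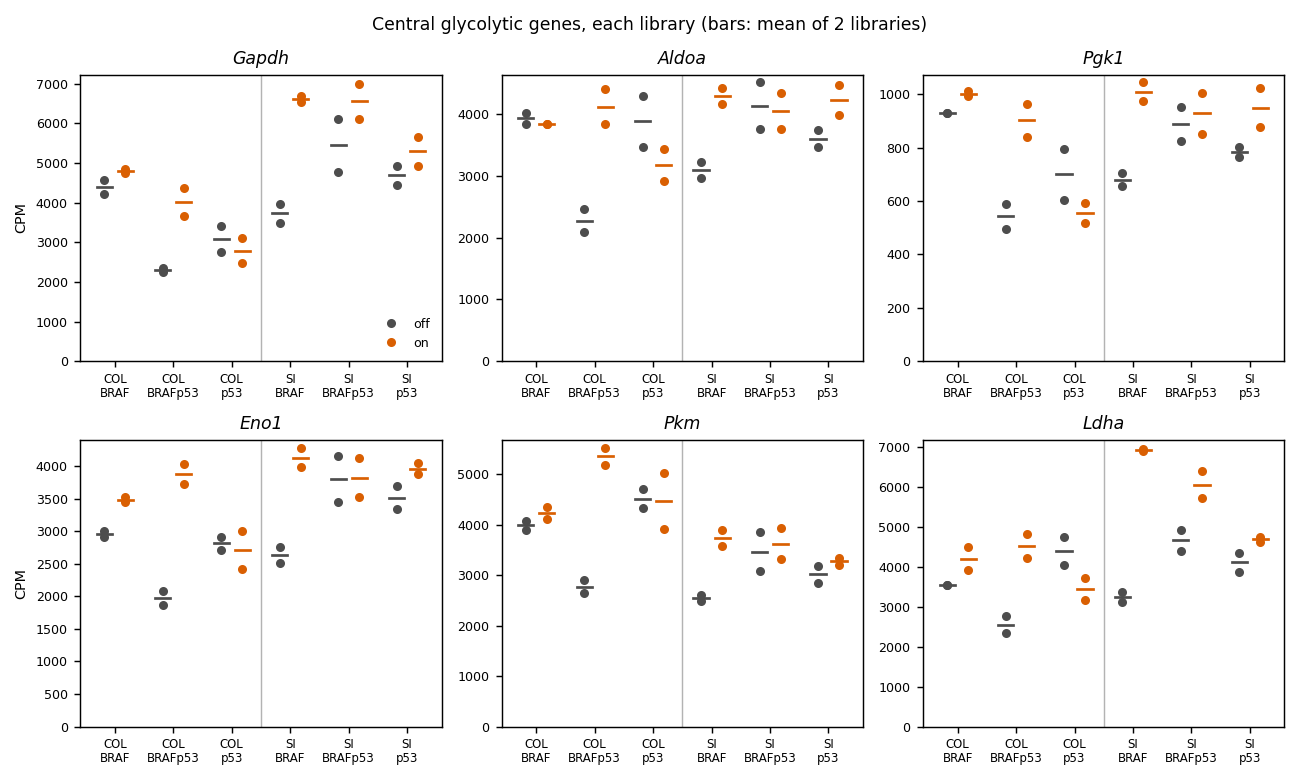
CPM (linear axis from 0) of 6 central glycolytic genes in each of the 24 libraries, off in grey and on in orange, with a bar at the mean of 2 libraries. For Gapdh, Aldoa, Pgk1, Eno1, Pkm and Ldha the COL BRAFp53 off points are the lowest COL off points and the SI BRAF off points the lowest SI off points.

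The off levels of these cultures differed in the direction opposite to their responses. Over the 18 genes tested from isomerase to lactate dehydrogenase in COL, the median log2 ratio of the BRAFp53 to the BRAF culture was -0.76 off and 0.05 on. In SI, over 17 genes, it was 0.49 off and -0.11 on. The ratio was smaller in size after induction for 17 of 18 genes in COL and 13 of 17 in SI. Whether the response or the starting level differs between genotypes cannot be told apart with 1 culture per genotype.

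The difference between the BRAFp53 and the BRAF response was tested within each tissue. In COL 3 of 38 members differed, where 0.907% of genes were called (0.532% higher and 0.374% lower), and all 3 (Aldoa, Eno1 and Pkm) had the larger response in BRAFp53. In SI 10 of 37 differed, where 8.20% of genes were called (1.93% higher and 6.28% lower), and all 10 had the lower response in BRAFp53. The COL count fell to 0 or 1 when any of 7 of the 8 libraries was left out and was 1 with a replicate block. The calls over all genes fell too, from 172 genes to between 0 and 159 without those libraries and to 17 with the block. The SI count was 4 without BRAF off replicate 2 or without BRAFp53 off replicate 1 and 5 without BRAFp53 on replicate 2, where 3.54%, 3.30% and 4.25% of all genes were called. DESeq2 called 16 in COL and 19 in SI, and over all genes it called 7.20% and 12.4%. Without the library labelled SI BRAF on replicate 1, Fbp1 and Fbp2 no longer passed in SI, while Pfkfb3, Pfkfb4 and Slc16a3 did.

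Between tissues the BRAF response was larger in SI for 8 of 38 members (10.7% of 19673 genes called, 7.40% higher and 3.31% lower), among them Hk1, Hkdc1, Pfkp and Ldha. With the same library left out Gpi1 no longer passed, while Slc16a3 did. The BRAFp53 response was lower in SI for 6 members (3.52% called, 2.13% higher and 1.39% lower), among them Aldoa, Eno1, Pkm and Pklr. The p53 response differed for 0 members by edgeR (0.117% called, 0.107% higher and 0.0102% lower), with 14 of 38 at an unadjusted p under 0.05 (7.79% of all genes), 2 by DESeq2 (0.788%) and 0 by limma-voom (0.0966%).

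Of the enzymes that set fructose 2,6-bisphosphate, Pfkfb3, the form of proliferating cells, rose in COL BRAFp53 from 18 and 17.6 CPM to 33.5 and 27.7, below the 60.4 and 46.1 of the COL BRAF culture before induction. In SI BRAFp53 it had 20.1 and 17.6 CPM off and 12.6 and 14.0 on, a change of -0.50 ± 0.17 that did not pass the test. Pfkfb4 rose in SI BRAF from 56.6 and 64.3 CPM to 94.5 and 109. Pfkfb1 fell in COL BRAF from 4.87 and 5.88 CPM to 2.74 and 1.43 and Pfkfb2 rose there from 7.76 and 5.74 to 10.5 and 11.2. Neither exceeded 11.2 CPM in any library, and Pfkfb2 shares 1262 exonic bases with Gm29427.

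In COL BRAF the calls among pyruvate dehydrogenase subunits and PDK kinases were lower. Pdha1 and Pdhb, the subunits of the first enzyme of pyruvate dehydrogenase, fell there by 0.46 and 0.37 on the log2 scale. Pdha1 went from 245 and 260 CPM to 178 and 188 there, and Pdhb from 123 and 123 to 94.2 and 96.9. Pdk1, one of the kinases that inhibit it, fell in COL BRAF from 93.8 and 91.3 CPM to 60.6 and 53.8 and in SI BRAF from 93.4 and 95.7 to 71.1 and 66.5. The 4 kinases gave 5 calls, each of them lower, namely 2 in COL BRAF and 1 in each of COL BRAFp53, SI BRAF and SI BRAFp53, where 9.61%, 7.76%, 14.2% and 4.53% of all genes were called lower. Pdk3 fell from 15.7 and 15.5 CPM to 8.23 and 9.76 in COL BRAF and from 20.7 and 19.1 to 10.3 and 12.4 in COL BRAFp53, and Pdk2 fell in SI BRAFp53 from 122 and 102 CPM to 65.9 and 58.0. Pdk4 was under 2 CPM in every library and gave no call. No member of this group was called higher in any arm.

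Of the lactate transporters, Slc16a3 (MCT4) was called higher in 3 arms and Slc16a1 (MCT1) in none. Slc16a1 ranged from 52.2 to 112 CPM over the 24 libraries. Slc16a3 rose in SI BRAF from 58.8 and 71.2 CPM to 152 and 215 (1.5 ± 0.16, edgeR adjusted p = 1.8e-05) and in SI BRAFp53 from 84.8 and 71.8 to 167 and 160. In COL BRAFp53 it rose from 22.9 and 28.0 CPM to 61.6 and 56.5, and in COL BRAF it had 79.8 and 68.3 off and 104 and 93.3 on, without passing the test. Slc16a3 made up 69.4% of the 2 transporters per kilobase in SI BRAF on (65.6% in replicate 1 and 73.1% in replicate 2), against 41.3% off, and 63.1% against 45.5% in SI BRAFp53.

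Pcx, which makes oxaloacetate from pyruvate, rose in SI BRAF from 6.77 and 7.63 CPM to 34.5 and 44.9 (2.46 ± 0.20, edgeR adjusted p = 1.9e-06) and in SI BRAFp53 from 26.2 and 21.6 to 81.0 and 106. In COL BRAF and COL BRAFp53 its log2 fold changes of 0.80 ± 0.38 and 1.04 ± 0.38 did not pass the test. Pck1, the next enzyme, rose in SI BRAF from 3.6 and 1.65 CPM to 9.44 and 15.1 and had 5.15 and 6.07 off and 3.32 and 4.54 on in SI BRAFp53.

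Fbp1 fell in 3 arms. It went from 51.7 and 51.6 CPM to 9.12 and 12.7 in COL BRAF (-2.25 ± 0.38), from 16.8 and 8.81 to 2.5 and 3.94 in COL BRAFp53 and from 347 and 324 to 99.1 and 51.4 in SI BRAFp53 (-2.16 ± 0.29). In SI BRAF it had 424 and 303 CPM off and 282 and 167 on, which missed the threshold (-0.69 ± 0.28, edgeR adjusted p = 0.080). Without the library labelled SI BRAF on replicate 1 it was called there. Fbp2, the muscle form, rose in COL BRAFp53 from 261 and 244 CPM to 400 and 361, and G6pc fell in SI BRAFp53 from 53.2 and 40.3 CPM to 26.3 and 19.6.

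**Figure D5:**
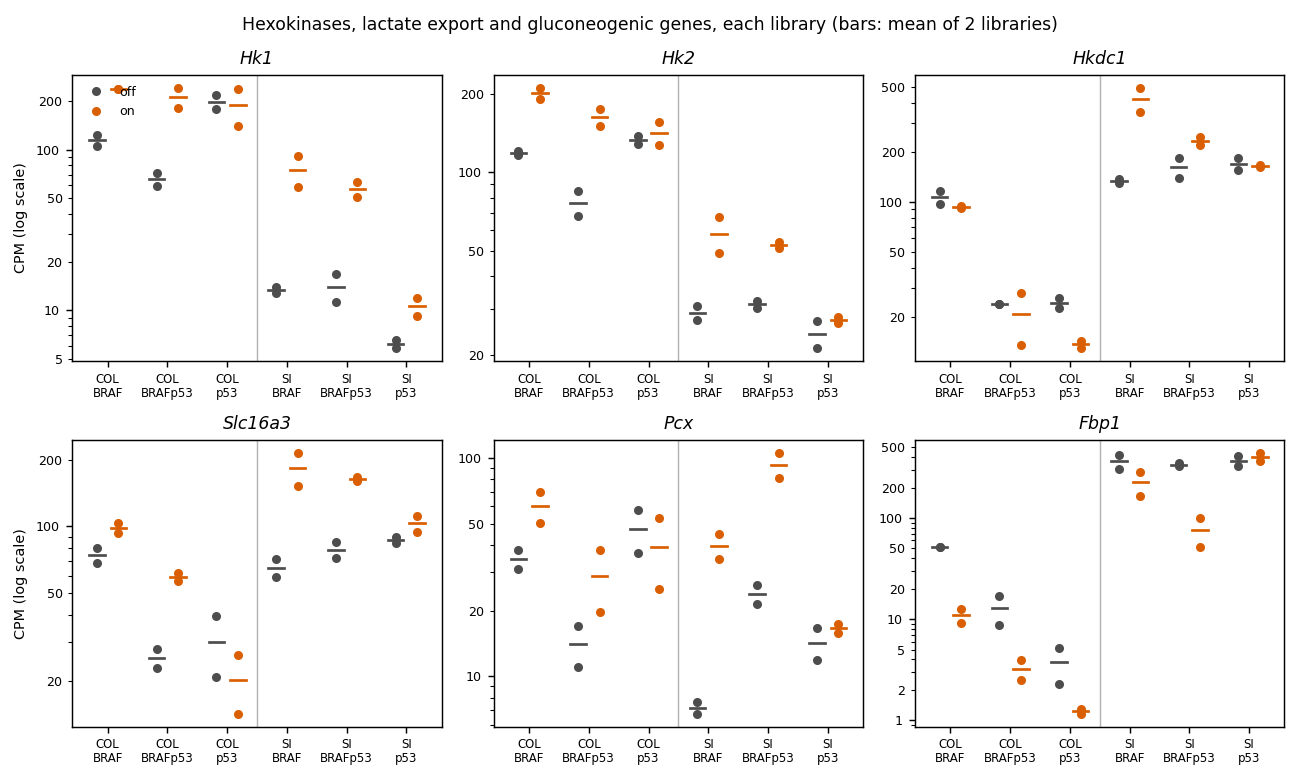
CPM on log axes for Hk1, Hk2, Hkdc1, Slc16a3, Pcx and Fbp1 in each of the 24 libraries, off in grey and on in orange, with a bar at the mean of 2 libraries. Hk1, Hk2 and Slc16a3 on points lie above the off points in the BRAF and BRAFp53 cultures of both tissues, and Fbp1 on points lie below them.

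Across the 4 BRAF-bearing arms, 33 of 38 members tested were called in at least 1, where 42.6% of 19521 genes were, 5 were called in none and 2 were not tested. The count was 32 without the library labelled SI BRAF on replicate 1, with Gpi1 lost. No member was called higher in 1 arm and lower in another, as were 1.87% of all genes. The 5 without a call were Aldoc, the brain form of aldolase, at 37.7 to 225 CPM, Eno3, the muscle form of enolase, at 6.16 to 32.5 CPM, and Ldhb, Pdk4 and Slc16a1.

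Other genes of the pathway gave the setting. Of 11 hexose transporter genes, 9 were tested in each tissue, and 1 was higher and 1 lower in COL BRAF and in COL BRAFp53, 5 and 1 in SI BRAF (5 and 0 without the library labelled SI BRAF on replicate 1), and 1 and 0 in SI BRAFp53. Slc2a1 (GLUT1), the basal glucose importer, was called higher in all 4 BRAF-bearing arms, with log2 fold changes of 1.41 in COL BRAF, 1.5 in COL BRAFp53, 1.45 in SI BRAF and 0.86 in SI BRAFp53. Slc5a1 (SGLT1), the apical glucose carrier, fell by 1.30 in COL BRAF and by 0.78 in COL BRAFp53 and rose by 1.55 in SI BRAF. Of 11 genes of fructose and galactose entry, 2 were higher and 3 lower in COL BRAF, 4 and 2 in COL BRAFp53, 7 and 0 in SI BRAF, and 3 and 4 in SI BRAFp53. Of all genes tested 10.3% were called higher and 9.61% lower in COL BRAF, 9.95% and 7.76% in COL BRAFp53, 17.5% and 14.2% in SI BRAF, and 6.98% and 4.53% in SI BRAFp53, which holds for all lists of this and the following paragraph. In SI BRAF 5 of these genes were higher and 1 lower without the library labelled SI BRAF on replicate 1. Khk, which phosphorylates fructose, fell by 1.66 in COL BRAF, by 0.91 in COL BRAFp53 and by 0.89 in SI BRAFp53. Pgm2 rose by 0.93 in COL BRAFp53, by 1.57 in SI BRAF and by 0.97 in SI BRAFp53.

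Of 20 TCA cycle genes 0 were called higher and 12 lower in COL BRAF, 4 and 0 in COL BRAFp53, 8 and 2 in SI BRAF, and 0 and 6 in SI BRAFp53. The SI BRAF count was 8 higher and 6 lower without the library labelled SI BRAF on replicate 1. Fh1, Sdhb and Mdh1 fell by 0.59, 0.58 and 0.57 in COL BRAF, and Idh2 fell by 1.77 in SI BRAF while Ogdh rose by 0.94 and Idh1 by 0.91. Of 9 pyruvate import and pyruvate dehydrogenase partner genes, 1 was higher and 5 were lower in COL BRAF, 0 were called in COL BRAFp53 and SI BRAFp53, and 2 were higher and 0 lower in SI BRAF, or 0 and 1 without the same library. In COL BRAF Pdhx, Dld and Mpc1 were among the lower genes, and Pdp1, a phosphatase that reactivates the complex, rose by 1.17. Of 9 pentose phosphate genes none was called lower in any arm, and 1, 4, 4 and 1 were higher in COL BRAF, COL BRAFp53, SI BRAF and SI BRAFp53, with 3 in SI BRAF without the same library. Of 11 further gluconeogenic genes (10 tested in COL), 0 were higher and 1 lower in COL BRAF, 1 and 0 in COL BRAFp53, and 2 and 1 in both SI BRAF and SI BRAFp53, and the list's median log2 fold change was -0.22, 0.08, -0.21 (-0.36 without the same library) and 0.13 in these arms. Got1, a transaminase, was called higher by 0.98 in COL BRAFp53, 1.43 in SI BRAF and 0.51 in SI BRAFp53. No gene of these lists was called in the p53 arms.

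Cell type markers also differed between off and on libraries, given here as sums with no test. The 9 enterocyte markers summed to 27300 and 21000 CPM off and 64200 and 65800 on in SI BRAF, and to 36500 and 30900 off and 42000 and 40800 on in SI BRAFp53. In COL BRAF they summed to 2640 and 2750 CPM off and 3260 and 2900 on, and in COL BRAFp53 to 2060 and 1720 off and 3220 and 1980 on. The sum of the 5 stem cell markers went from 421 and 345 CPM to 113 and 158 in COL BRAF, from 636 and 516 to 153 and 207 in COL BRAFp53, from 353 and 387 to 141 and 47.3 in SI BRAF and from 288 and 401 to 222 and 195 in SI BRAFp53. The 5 proliferation markers summed to 1140 and 1170 CPM off and 756 and 730 on in COL BRAF, to 1390 and 1200 off and 879 and 1050 on in COL BRAFp53, to 819 and 870 off and 672 and 460 on in SI BRAF, and to 865 and 953 off and 849 and 742 on in SI BRAFp53. The part of these shifts in the changes of glycolytic genes was not tested.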

How the data were processed

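RNA-seq gene counts, deposited by the authors as 1 table for each tissue, were used as given. The authors trimmed reads with Trimmomatic 0.36 and aligned them with STAR 2.5.2b according to the submitters' processing notes, which list mm9 and mm10, and the strand setting and annotation release were not given in the sources used here. Counts were tested per tissue (12 libraries) with edgeR 4.0.16 in R 4.3.3 (TMM scaling, filterByExpr, quasi-likelihood test, Benjamini-Hochberg adjusted p under 0.05). Responses were compared between tissues in 1 fit of all 24 libraries. Off libraries of a culture were summed for COL against SI. CPM per kilobase used the union of exons of each gene. Values given with ± are the mean and SD for shares and the log2 fold change and SE for tests.

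The members, lists and named genes were chosen with earlier results of these data known. All members are accounted for, and values are given for those called in an arm or leading a step. Alternatives were DESeq2 1.42.0, limma-voom (limma 3.58.1), other scaling, no filter, a log2 fold change of at least 1, a replicate block and leaving out each library. Replicate numbers did not pair the libraries, since same-numbered libraries deviated with correlations from -0.03 to 0.04.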

Additional observations from a re-analysis of the deposited data

Results flagged for a closer look

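Differences between responses that passed the test are given as differences of log2 fold changes, with edgeR adjusted p under 0.05 across all genes. In COL the BRAFp53 response exceeded the BRAF response by 0.89 for Aldoa, 0.86 for Pkm and 0.74 for Eno1. In SI the BRAFp53 minus BRAF difference was -2.74 for Pck1, -1.46 for Fbp1, -1.34 for G6pc, -1.12 for Hkdc1, -0.99 for Pklr, -0.91 for Pdk2, -0.82 for Pfkp, -0.71 for Ldha, -0.64 for Eno1 and -0.61 for Fbp2.

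The SI minus COL difference of the BRAF response was 1.90 for Hkdc1, 1.70 for Pcx, 1.46 for Hk1, 1.01 for Pfkp, 0.89 for Ldha, 0.74 for Gapdh, 0.65 for Gpi1 and 0.61 for Tpi1. For the BRAFp53 response the SI minus COL difference was -1.25 for Pfkfb3, -1.12 for Pklr, -0.93 for Eno1, -0.92 for Fbp2, -0.85 for Aldoa and -0.85 for Pkm.

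Outside the main measurement, the library labelled SI BRAF on replicate 1 had 770 Xist counts and 5582 counts of 4 Y-linked genes, against 6489 and 6954 of the latter in the off libraries of that culture. Its Xist counts compare with 12 and 27 in those off libraries and 8 in on replicate 2.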

How the results depend on the processing

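Requiring a log2 fold change of at least 1 left 4 of 10 called members in COL BRAF, 4 of 19 in COL BRAFp53, 8 of 20 in SI BRAF and 5 of 10 in SI BRAFp53, and of all called genes it left 1512 of 3776, 1332 of 3360, 2011 of 5345 and 830 of 1941. With no filter on low counts, 8 members were called in COL p53 and 1 in SI p53, where the test as reported called 0, and 1.87% and 0.576% of all genes were called. It called 17 for the BRAFp53 against BRAF response in COL (3 as reported), 17 in SI (10), 19 among SI off cultures (11), 16 for the BRAF response between tissues (8), 20 for BRAFp53 (6) and 11 for p53 (0), beside 4.31%, 7.6%, 7.87%, 8.12%, 4.87% and 1.54% of all genes. DESeq2 called 4 in COL p53, 16 and 19 for the response differences in COL and SI, 19 among SI off cultures, 13, 10 and 2 for the BRAF, BRAFp53 and p53 responses between tissues and 19 between COL and SI off cultures (12), beside 1.71%, 7.20%, 12.4%, 10.7%, 14.5%, 7.90%, 0.788% and 36.7% of all genes. The replicate block, whose numbers share no more than a name, gave 1 for the COL response difference, and 14 and 1 for the BRAF and p53 responses between tissues, beside 0.0896%, 9.06% and 0.132% of all genes. The cause of these differences was not tested.

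Leaving out 1 library at a time gave 6 to 8 called members in COL BRAF, with 6 without off replicate 2, on replicate 1 or on replicate 2. It gave 0 to 4 for the COL response difference, 4 being reached without BRAFp53 off replicate 1, 1 without BRAFp53 on replicate 1 and 0 without any of the other 6. The SI response difference ran from 4 to 14, with 4 without BRAF off replicate 2 or BRAFp53 off replicate 1 and 5 without BRAFp53 on replicate 2. SI off cultures ran from 2 (without BRAF off replicate 2) to 13, with 4, 5 and 7 without BRAF off replicate 1, BRAFp53 off replicate 1 and p53 off replicate 2. The BRAF response between tissues ran from 4 (without SI BRAF off replicate 2) to 9, with 5 without COL BRAF off replicate 1 or on replicate 2. The BRAFp53 response between tissues ran from 2 (without SI BRAFp53 off replicate 1 or on replicate 2) to 10 (without COL BRAFp53 off replicate 1), with 3 without COL BRAFp53 off replicate 2. In these comparisons in turn the share of all genes called ran from 9.59% to 12.1%, 0.0% to 1.36%, 3.30% to 11.8%, 3.14% to 5.70%, 5.63% to 8.57% and 1.10% to 3.40%.

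Only uncalled values changed sign, all when 1 library or culture was left out. G6pc in the COL response difference ran from -7.95 to 0.71. Pdk4 ran from -4.16 to 0.14 in SI BRAF (0.06 without off replicate 2), from -8.47 to 6.89 for the BRAF response between tissues (0.01 without COL BRAF off replicate 2), from -5.58 to 0.037 for BRAFp53 and from -0.28 to 1.53 between COL and SI off cultures. Ldhb ran from -4.64 to 6.37 for the BRAF response between tissues. Each of these 3 genes had few counts in some of the libraries compared.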

Other observations

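Genes of the hypoxia response and regulators of sugar metabolism were counted in the same manner. In COL BRAF, COL BRAFp53, SI BRAF and SI BRAFp53 in turn, 10.3%, 9.95%, 17.5% and 6.98% of all genes tested were called higher and 9.61%, 7.76%, 14.2% and 4.53% lower. Of 18 hypoxia genes, 1 was called higher and 1 lower in COL BRAF, 6 and 0 in COL BRAFp53, 9 and 0 in SI BRAF, and 3 and 1 in SI BRAFp53. Without the library labelled SI BRAF on replicate 1 the SI BRAF counts were 10 and 0. Egln3, an oxygen-sensing hydroxylase that is itself hypoxia-inducible, rose by 1.75 in COL BRAFp53, by 1.75 in SI BRAF and by 1.01 in SI BRAFp53.

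Of 18 regulators, 5 were called higher and 3 lower in COL BRAF, 1 and 3 in COL BRAFp53, 4 and 3 in SI BRAF, and 1 and 2 in SI BRAFp53, with 3 and 3 in SI BRAF without the same library. Mlx, the partner of the glucose-sensing factors ChREBP and MondoA, had log2 fold changes of 0.55 in COL BRAF, 0.73 in COL BRAFp53, 1.13 in SI BRAF and 0.59 in SI BRAFp53. No gene of either list was called in the p53 arms.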
